A study of Mus musculus with 4 samples.

Results

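The metallothioneins Mt1 and Mt2, their transcriptional regulator Mtf1 and 4 membrane transporters of zinc and related metals (Slc30a1, Slc30a10, Slc39a14 and Slc39a8) were followed in mouse liver mRNA-seq. These 7 genes were taken by name from a table of 13903 genes, and all 7 were found. They were chosen by their CPM values in these same 4 libraries, so the levels and changes below are a description of the members, without tests.

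Mice of the OGT-Floxed type (background C57BL/6J) received AAV8-TBG-CRE, giving the livers labelled OGT-KO, or AAV8-TBG-eGFP, giving the livers labelled control. The TBG promoter is used to direct expression to hepatocytes, so other liver cells were not the target of either vector. The floxed allele, an AAV8-TBG vector and the CDE diet (deficient in choline, with ethionine added, a model of liver injury) were shared by control and OGT-KO mice, whose age and sex the labels do not give. Tissue was collected without recovery from the diet or 7 days into recovery, as a single library per condition from RNA that had been pooled from 3 mice, so no condition has a replicate.

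Metallothioneins are small cysteine-rich proteins of the cytosol that bind zinc and copper. MTF1, a zinc-finger factor that senses free zinc, binds metal response elements (MREs) and drives transcription of the metallothionein genes and of Slc30a1, and metallothioneins in liver are also known to respond to glucocorticoids and to inflammatory cytokines. ZnT proteins (the Slc30a family) move metal out of the cytosol, and ZIP proteins (the Slc39a family) move metal into it. SLC30A1 is the zinc exporter of the plasma membrane, SLC30A10 exports manganese, and SLC39A14 and SLC39A8 take up zinc, manganese and iron, SLC39A14 being known as a ZIP transporter that inflammation induces in liver.

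The regions around the start sites of the metallothionein genes and of the 2 member exporters are shown because they hold matches to the MRE core, the letters TGCACNC or TGCGCNC on either strand, which are in capitals. Each run covers 250 bases before and 50 bases after the start site that RefSeq gives on GRCm38.p6, on the plus strand. Mt2 (chr8:94172368-94172667) lies just upstream of Mt1 (chr8:94178839-94179138), and Slc30a1 (chr1:191906531-191906830) and Slc30a10 (chr1:185454598-185454897) are both on chromosome 1.
Mt1: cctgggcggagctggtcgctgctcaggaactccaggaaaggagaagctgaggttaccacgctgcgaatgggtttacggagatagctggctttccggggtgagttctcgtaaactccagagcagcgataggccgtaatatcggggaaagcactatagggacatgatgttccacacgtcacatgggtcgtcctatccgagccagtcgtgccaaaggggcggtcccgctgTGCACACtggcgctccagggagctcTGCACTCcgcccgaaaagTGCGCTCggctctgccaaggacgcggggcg
Mt2: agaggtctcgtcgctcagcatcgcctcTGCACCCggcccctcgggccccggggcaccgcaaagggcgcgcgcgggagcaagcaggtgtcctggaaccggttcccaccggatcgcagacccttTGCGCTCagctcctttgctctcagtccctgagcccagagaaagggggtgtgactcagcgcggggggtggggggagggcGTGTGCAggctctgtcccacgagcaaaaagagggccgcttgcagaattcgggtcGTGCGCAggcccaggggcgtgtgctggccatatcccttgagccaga
Slc30a1: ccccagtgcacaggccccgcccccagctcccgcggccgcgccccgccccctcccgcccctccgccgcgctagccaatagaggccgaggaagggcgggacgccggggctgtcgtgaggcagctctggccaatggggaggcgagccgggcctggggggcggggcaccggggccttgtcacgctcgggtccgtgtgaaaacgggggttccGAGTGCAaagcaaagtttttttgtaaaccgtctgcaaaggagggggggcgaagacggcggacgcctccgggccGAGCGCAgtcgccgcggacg
Slc30a10: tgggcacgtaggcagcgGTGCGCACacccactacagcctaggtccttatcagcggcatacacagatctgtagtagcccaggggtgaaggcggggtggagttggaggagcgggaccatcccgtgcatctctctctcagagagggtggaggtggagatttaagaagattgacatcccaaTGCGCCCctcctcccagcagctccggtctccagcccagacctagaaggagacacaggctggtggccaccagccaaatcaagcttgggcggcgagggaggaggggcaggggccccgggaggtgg

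Mt1 held 3 matches to the MRE core, Mt2 4, Slc30a1 2 and Slc30a10 3, of which a pair on opposite strands overlapped and shows as 1 longer run of capitals. The window of Mtf1 held 0 matches, and of the 2 windows of Slc39a8 the upstream window held 0 and the downstream window 1. Slc39a14 was not analysed here for motifs. Of all 32851 RefSeq windows of this length, 25.7% held at least 1 match and 1.97% held 3 or more. The core of the antioxidant response element (TGACNNNGC, either strand) occurred once in the windows of Mt2, Slc30a1 and the upstream Slc39a8 start, and in 12.4% of all windows. The STAT element TTCNNNGAA occurred in none of the member windows and in 8.30% of all windows. Sequence outside these windows, and windows around other start sites, were not searched. A gene without a match here can therefore hold one beyond its window. A match is a string of letters and does not show that a factor binds there.

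**Figure D1:**
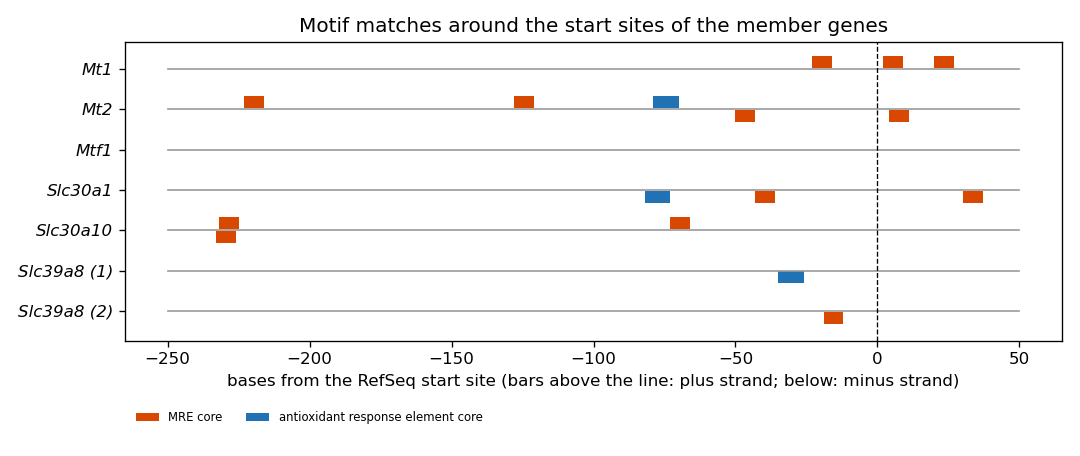
Positions of motif matches in the windows around the start sites of 6 member genes, in bases from the RefSeq start site, with plus-strand matches above each line and minus-strand matches below it. The matches of Mt1 in its window lie at or near the RefSeq start site, whereas those of Mt2 are spread over the window. Sequence outside the windows was not searched.

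Levels were read as CPM, reads of a gene per 1000000 reads of all listed genes. Each library held 19972699 to 22866431 such reads, and intervals below are exact 95% intervals of the reads, which cover counting error only. Changes are differences of log2(CPM + 1) between libraries, so changes of low genes come out smaller than their CPM ratios, and a gene was called higher or lower at a 2-fold difference when its mean was at least 10 CPM. All 7 members passed that filter, as did 8963 of the 13903 genes. With no recovery Ogt, the targeted gene, had 64.7 CPM in the library labelled control and 55.3 CPM in that labelled OGT-KO, and 55.7 and 77.7 CPM after 7 days. Its whole-gene level thus did not go with the label after 7 days, so below OGT-KO and control stand only for the libraries labelled OGT-KO and labelled control. The median gene was 0.51 log2 higher in OGT-KO at the earlier time and 0.48 at the later time. Median-ratio scaling (size factors from the median ratio of all genes) put these medians at -0.19 and -0.18.

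Hepatocyte markers were high in every library, and their 7 genes summed to 91483 and 97184 CPM in control (no recovery, then 7 days) and to 69234 and 82916 CPM in OGT-KO. Markers of other cells moved with the label, and no listed marker in the table was at 0. The 7 macrophage and Kupffer cell markers, all detected, summed to 184 and 70.0 CPM in the libraries labelled control (no recovery, then 7 days) and to 672 and 476 in those labelled OGT-KO. The 6 stellate cell and myofibroblast markers summed to 136 and 97.0 CPM against 1515 and 1776, the 5 endothelial markers to 171 and 118 against 296 and 218, and the 4 cholangiocyte markers to 12.7 and 17.5 against 171 and 212. Neutrophil markers (3 of 4 in the table) summed to at most 2.40 CPM in control against 14.0 and 23.4 CPM in OGT-KO, and lymphocyte markers (3 of 5) to 1.65 and 1.10 against 4.81 and 2.88. In RNA of whole liver, fewer cells of a type and less RNA per cell cannot be told apart, and the part of these cells in the results below was not tested.

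The metallothioneins differed the most of the members. Mt1 had 12.4 CPM (10.9 to 14.0) in the control library with no recovery and 231 CPM (225 to 238) in the control library after 7 days. It had 136 CPM (131 to 141) and 109 CPM (105 to 114) in the libraries labelled OGT-KO at the same times. The control library with no recovery was therefore low, the control library after 7 days was high, and both libraries labelled OGT-KO lay between them.

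Mt2 had the same order of libraries over a wider range, 3.67 CPM (2.90 to 4.58) in control with no recovery, 162 CPM (156 to 167) in control after 7 days, 69.4 CPM (66.0 to 72.9) in OGT-KO with no recovery and 52.3 CPM (49.3 to 55.4) in OGT-KO after 7 days. The lowest value rests on 78 reads. No counting interval of a library overlapped that of another, for Mt1 or for Mt2. The summed level of both genes was 16.0 and 393 CPM in control and 206 and 162 CPM in OGT-KO.

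The ratio of Mt1 to Mt2 in CPM was lower where their summed level was higher. It was 3.37 in control with no recovery, where both were lowest, and 1.43 in control after 7 days, where both were highest. It was 1.96 and 2.09 in the libraries labelled OGT-KO. Per kilobase of the principal transcript (549 bases for Mt1 and 511 for Mt2 in GENCODE M21), Mt1 stood above Mt2 in every library, at 22.5 against 7.18 CPM per kb in the lowest and 421 against 317 in the highest.

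**Figure D2:**
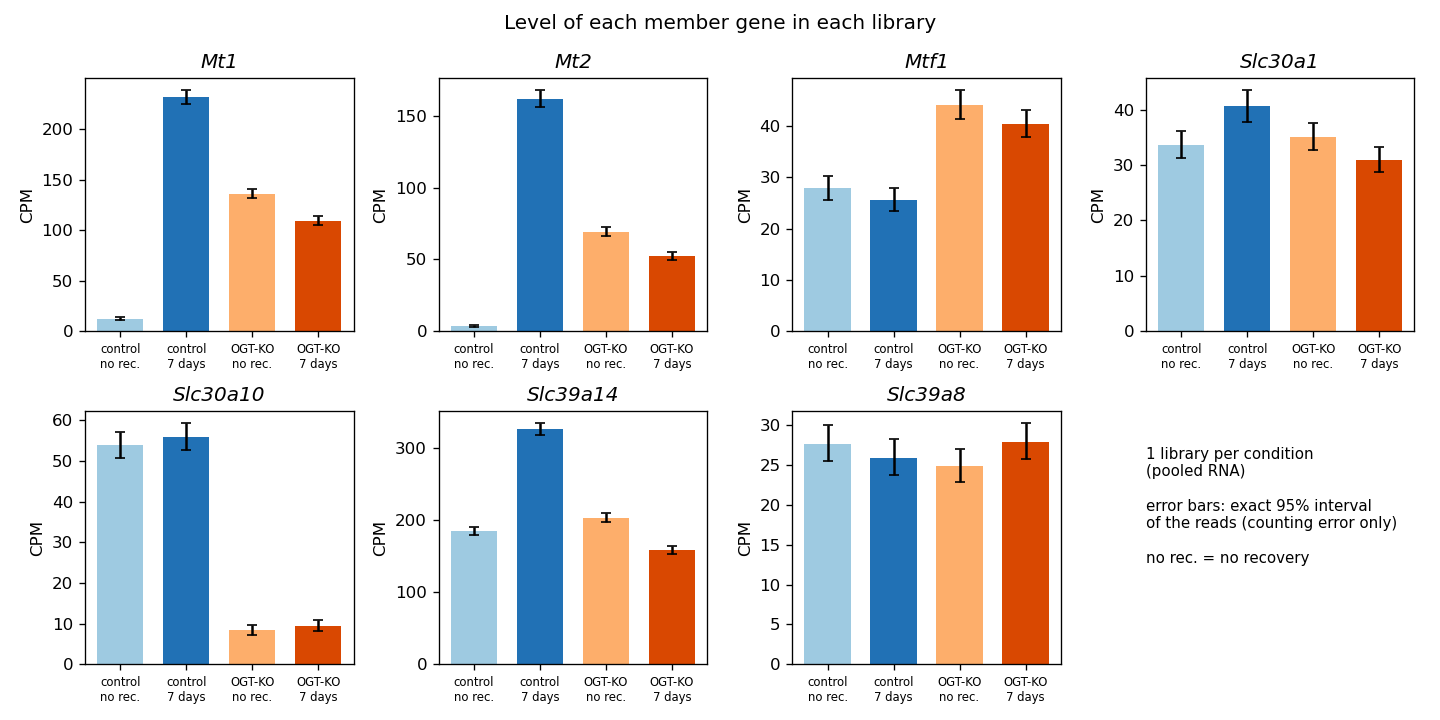
CPM of the 7 member genes in the 4 libraries, 1 library per bar, with exact 95% intervals of the reads that cover counting error only. Mt1 and Mt2 are lowest in control with no recovery and highest in control after 7 days, Slc39a14 is highest in control after 7 days, and Slc30a10 is low in both libraries labelled OGT-KO.

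With no recovery, the question is how the livers differed between the labels at the end of the diet. Mt1 was 11.0-fold higher (9.70 to 12.5) and Mt2 18.9-fold higher (15.1 to 24.1) in the library labelled OGT-KO, with log2 fold changes of 3.36 and 3.91. Slc30a10, the manganese exporter, was 6.45-fold lower (5.53 to 7.56). Of the 7 members, 2 were thus higher and 1 lower, where 24.4% of all genes tested were called higher and 5.69% lower (30.1% in either direction). The other 4 members were within 2-fold. The median log2 fold change of the members was 0.14, against 0.51 over all genes tested.

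After 7 days the metallothioneins stood the other way. Mt1 was 2.12-fold lower (2.01 to 2.22) and Mt2 3.09-fold lower (2.89 to 3.31) in the library labelled OGT-KO. Slc30a10 was again lower, by 5.87-fold (5.06 to 6.82), and Slc39a14 was 2.05-fold lower (1.97 to 2.14). Of the 7 members 0 were called higher and 4 lower, where 22.9% of all genes were called higher and 4.27% lower (27.1% in either direction). The median of the members was -1.03, against 0.48 over all genes. Mt1 and Slc39a14 lie just past the limit of 2-fold, at log2 fold changes of -1.07 and -1.03, and Slc30a1, at -0.38, is the nearest member outside it. With a pseudocount of 10, Slc39a14 was at -0.99 and was not called, and with median-ratio scaling Slc30a1 was at -1.05 and was called lower.

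**Figure D3:**
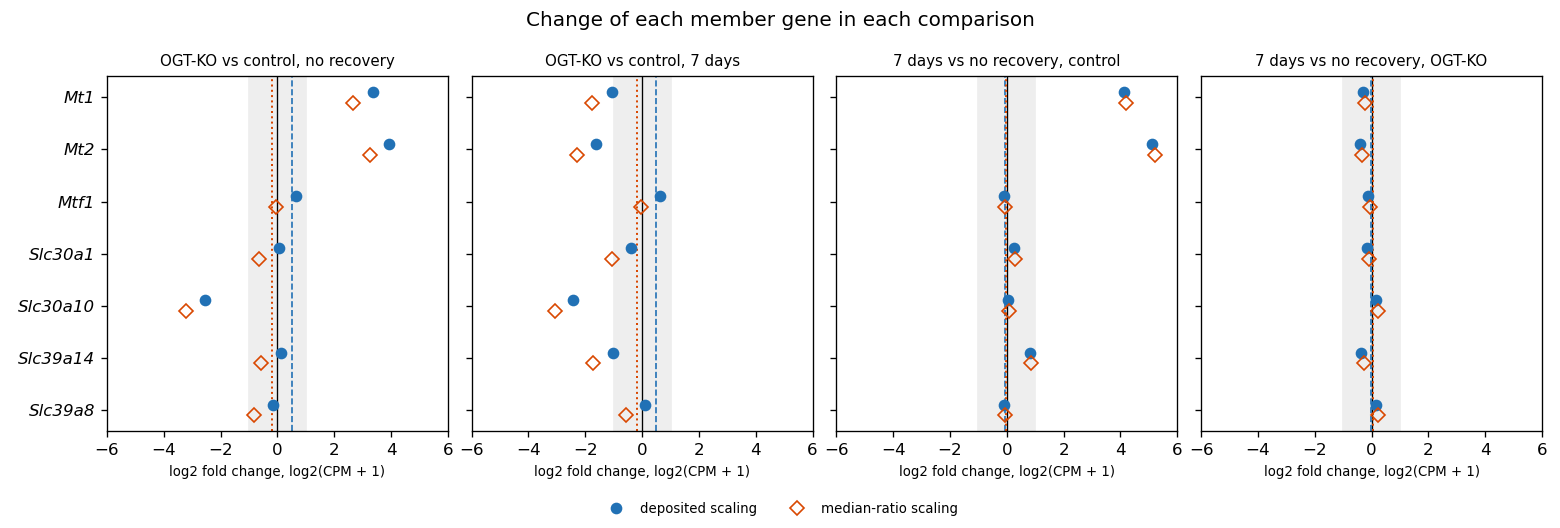
Log2 fold change of each member, log2(CPM + 1) scale, in the 4 comparisons, with the deposited scaling (filled circles) and median-ratio scaling (open diamonds), the 2-fold band in gray and the median of all genes as a dashed line (deposited) and a dotted line (median ratio). Mt1, Mt2 and Slc30a10 keep their side under both scalings between the labels, whereas Mtf1 at both times, Slc30a1 and Slc39a14 with no recovery and Slc39a8 after 7 days change sign.

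Over the 7 days of recovery, the change of the metallothioneins lay in the control livers. Mt1 was 18.7-fold higher (16.5 to 21.2) and Mt2 44.1-fold higher (35.2 to 55.9) after recovery in control. In the libraries labelled OGT-KO they were 1.25-fold (1.18 to 1.31) and 1.33-fold (1.23 to 1.43) lower after recovery, inside the 2-fold limit. In control, 2 of the 7 members were called higher and 0 lower, where 0.245% of all genes were called higher and 0.96% lower (1.2% in either direction). In OGT-KO 0 of 7 were called in either direction, where 1.04% of all genes were called higher and 0.435% lower (1.47% in either direction). The 4 comparisons share libraries pairwise, so the low control library with no recovery enters both the difference between labels at that time and the change in control.

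The difference between the labels in the change over recovery (the log2 change in OGT-KO minus that in control) was -5.53 for Mt2 and -4.43 for Mt1. These were the lowest and next lowest values of the 8963 genes tested, of which 58, or 0.647%, had a value at or under -1. Slc39a14 was at -1.17, the 38th lowest. The other members were at -0.44 (Slc30a1), -0.013 (Mtf1, at 0.022 with median-ratio scaling), 0.12 (Slc30a10) and 0.25 (Slc39a8). Called in this difference were thus 3 members lower and 0 higher, where 2.09% of all genes were called higher and 0.647% lower (2.73% in either direction). Other scalings gave -4.42 to -4.48 for Mt1, -5.55 to -5.59 for Mt2 and -1.14 to -1.22 for Slc39a14. A pseudocount of 10, which shrinks low levels, gave -3.72 for Mt1 and -4.00 for Mt2. With 1 library per condition these differences could not be tested.

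**Figure D4:**
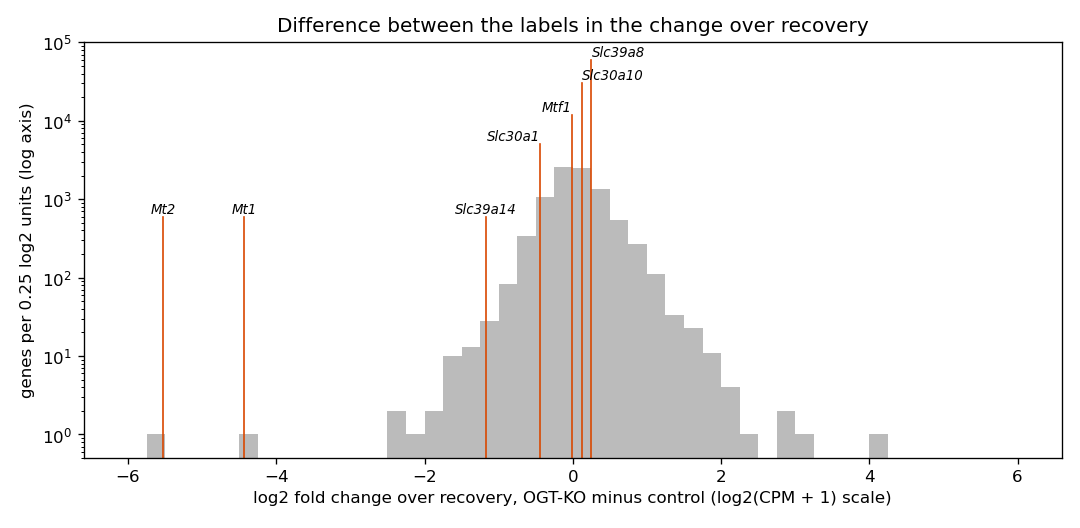
Number of genes, on a log axis, by the difference between the labels in the log2 change over recovery for the 8963 genes tested, with the 7 members as vertical lines whose heights carry no value. Mt2 and Mt1, at -5.53 and -4.43, stand below all other genes, Slc39a14 is at -1.17 and the other members lie among the bulk of genes.

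Only 3 genes crossed the 2-fold limit in opposite directions at the 2 times. Mt1 and Mt2 were called higher with no recovery and lower after 7 days, a pattern that 0.0223% of the genes tested (2 genes) had. Cyp4a14, a fatty acid hydroxylase that is no member, was the single gene (0.0112%) with the reverse pattern, at 33.2 and 8.16 CPM in control against 9.75 and 52.7 CPM in OGT-KO.

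The genes whose profile was most like that of the metallothioneins were found by the Euclidean distance between log2(CPM + 1) profiles centered over the 4 libraries. Mt1 and Mt2 were 0.71 apart, and no other gene tested was nearer to either. Cib3 came next for both, at 1.88 from Mt1 and 2.58 from Mt2, with 3.95 and 14.3 CPM in control and 13.5 and 21.1 CPM in OGT-KO. For Mt1 it was followed by Epha2, Gm7694, Pspc1 and Fabp5 (2.21 to 2.29), and for Mt2 by Gm7694, Epha2, Fabp5 and Id2 (2.78 to 2.99). Gm7694 was the only 1 of these 6 genes called lower in OGT-KO after 7 days, at -1.47 log2. None had a change in control near that of the metallothioneins, since their log2 changes there were 0.89 to 2.02 against 4.12 and 5.12.

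Mtf1 itself did not go with the metallothioneins. It had 27.8 CPM (25.6 to 30.1) in control with no recovery, 25.6 CPM (23.5 to 28.0) in control after 7 days, 44.0 CPM (41.4 to 46.8) in OGT-KO with no recovery and 40.3 CPM (37.7 to 43.0) in OGT-KO after 7 days. It was thus higher in both libraries labelled OGT-KO, by 0.65 and 0.63 log2, which is near the median gene at 0.14 and 0.15 above it, and with median-ratio scaling it was at -0.055 and -0.033. Between the times its counting intervals overlapped within each label.

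Slc30a1, the zinc exporter that MTF1 drives, varied little at the deposited scaling. It had 33.6 CPM (31.2 to 36.2) and 40.6 CPM (37.8 to 43.4) in control and 35.1 CPM (32.7 to 37.6) and 30.9 CPM (28.7 to 33.3) in OGT-KO, in the order no recovery and 7 days. Its highest library was control after 7 days, as for the metallothioneins, but its range over the libraries was 1.31-fold against 18.7-fold for Mt1 and 44.1-fold for Mt2. After recovery it was 1.21-fold higher (1.09 to 1.34) in control and 1.13-fold lower (1.02 to 1.26) in OGT-KO. Between the labels with no recovery it was at 0.059 log2, and at -0.64 with median-ratio scaling.

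Slc30a10 parted the labels and not the times. It had 53.9 CPM (50.8 to 57.1) and 55.9 CPM (52.6 to 59.3) in control, and 8.35 CPM (7.21 to 9.63) and 9.53 CPM (8.30 to 10.9) in OGT-KO. The counting intervals overlapped between the times in each label and did not overlap between the labels. Only 1.05% of all genes had a lower log2 fold change between the labels with no recovery, and 0.725% after 7 days. With median-ratio scaling it was at -3.22 and -3.08, in place of -2.55 and -2.43. Hepatocyte markers were also lower in sum in OGT-KO, as given above, and their part in the level of Slc30a10 was not tested.

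Slc39a14 had the highest CPM of the transporters in every library, and per kilobase it was also above the other 3. It had 184 CPM (179 to 190) in control with no recovery, 326 CPM (318 to 334) in control after 7 days, 203 CPM (197 to 209) in OGT-KO with no recovery and 159 CPM (153 to 164) in OGT-KO after 7 days. Control after 7 days was the high library, 1.77-fold (1.70 to 1.84) above control with no recovery, which is under the 2-fold limit but above the change of 99.6% of all genes. In OGT-KO it was 1.28-fold lower (1.23 to 1.34) after recovery. The difference between labels with no recovery, 0.14 log2, changed sign to -0.58 with median-ratio scaling and to -0.34 with upper-quartile scaling.

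Slc39a8 varied least of the members at the deposited scaling, by 1.12-fold over the libraries. It had 27.7 CPM (25.5 to 30.0) and 25.9 CPM (23.7 to 28.2) in control and 24.9 CPM (22.9 to 27.0) and 27.9 CPM (25.8 to 30.2) in OGT-KO. All 4 counting intervals overlapped. The interval of the ratio included 1 in 3 of the 4 comparisons, and in OGT-KO over recovery its lower bound lay just above 1 (1.12-fold, upper bound 1.26). With median-ratio scaling its log2 fold changes between the labels were -0.84 and -0.56, in place of -0.15 and 0.11.

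In order of level per kilobase of principal transcript, Slc39a14 led in control with no recovery (37.4 CPM per kb), followed by Mt1 (22.5), Slc30a10 (9.24), Slc39a8 (7.83), Mt2 (7.18), Slc30a1 (6.41) and Mtf1 (3.64). Here the intervals of Slc39a8, Mt2 and Slc30a1 overlapped from each to the next. In the other 3 libraries Mt1, Mt2 and Slc39a14 came first in that order. Slc30a10 followed them in control after 7 days (9.57 CPM per kb) and came last in both libraries labelled OGT-KO (1.43 and 1.63), where Slc39a8, Slc30a1 and Mtf1 lay between 5.28 and 7.90. Slc39a8 and Slc30a1 overlapped in control after 7 days and in OGT-KO with no recovery, and Slc30a1 and Mtf1 in OGT-KO after 7 days.

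The rest of the zinc families was read from a list of 22 genes, of which 17 were in the table and 11 passed the filter. With no recovery 1 of the 11 was called higher in OGT-KO and 0 lower, and after 7 days 2 were called higher and 0 lower. Over all genes 24.4% and 22.9% were called higher and 5.69% and 4.27% lower, so these counts do not set the list apart. Their median log2 fold change was 0.44 and 0.64, near the 0.51 and 0.48 of all genes. Slc30a4, a zinc transporter of intracellular vesicles, had 11.7 and 10.1 CPM in control against 39.7 and 31.9 CPM in OGT-KO, a log2 fold change of 1.68 and 1.57 that was 0.99 and 0.92 with median-ratio scaling. Slc30a7, which loads the secretory pathway with zinc, had 22.4 and 20.3 CPM against 38.9 and 42.2 CPM, was called after 7 days at 1.02, and was at 0.36 there with median-ratio scaling. Over the 7 days of recovery 0 of the 11 genes were called in either label, where 1.2% (control) and 1.47% (OGT-KO) of all genes were, so a count of 0 is near that background.

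Below the filter, the related ZIP transporters Slc39a6 and Slc39a10 were also low in control. Slc39a10, whose gene MTF1 is known to repress, had 3.20 and 1.90 CPM in control and 18.2 and 10.7 CPM in OGT-KO. Slc39a6 had 68 and 50 reads in control and 396 and 256 reads in OGT-KO. These log2 fold changes were 2.20 and 2.01 for Slc39a10 and 2.13 and 1.82 for Slc39a6, and they stayed above 1 with median-ratio scaling (1.26 to 1.57). Mt3, the metallothionein best known from brain, had 0 reads in both control libraries, which allows up to 0.141 and 0.150 CPM at 3 reads, and 12 and 5 reads in OGT-KO. Mt4, Slc30a2, Slc30a3, Slc30a8 and Slc39a12 were not analysed here.

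**Figure D5:**
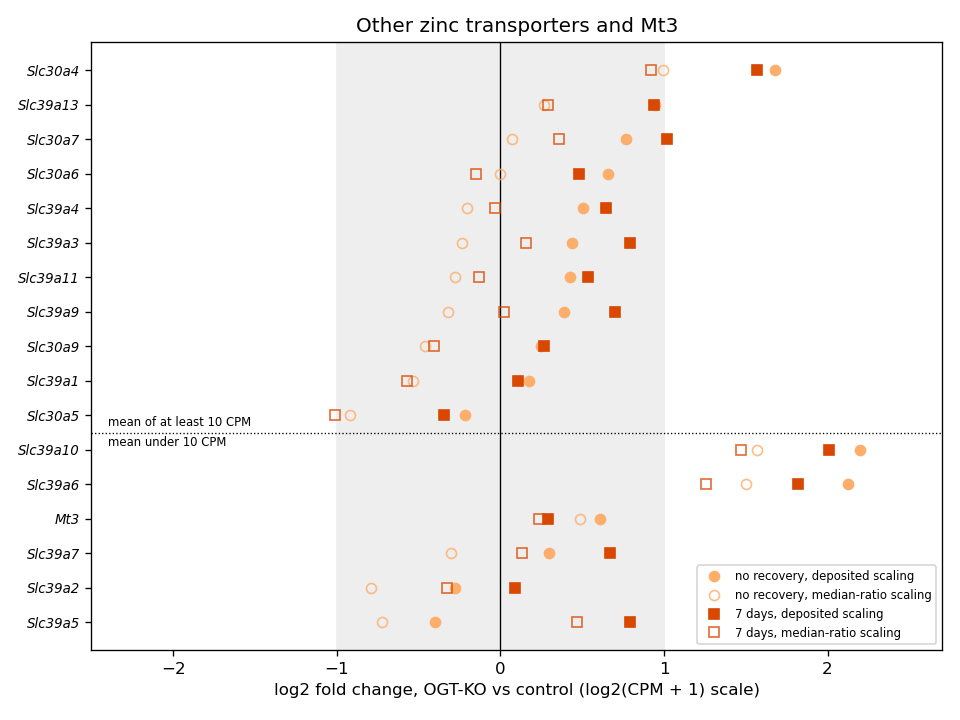
Log2 fold change between the labels, log2(CPM + 1) scale, for the 17 other zinc transporter and metallothionein genes in the table, with no recovery (circles) and after 7 days (squares), with the deposited scaling (filled) and median-ratio scaling (open), and the 2-fold band in gray. Slc30a4 at both times and Slc30a7 after 7 days are past the band at the deposited scaling and inside it with median-ratio scaling, and many genes near 0 change sign between the scalings, whereas Slc39a6 and Slc39a10, under the filter, stay outside the band under both.

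Other genes that respond to metal or to the signals known to act on metallothioneins were read from lists. Of 4 further MTF1 targets past the filter, 3 were called higher in OGT-KO with no recovery and after 7 days, where 24.4% and 22.9% of all genes were. Between the times 0 of the 4 were called, which is near the 1.2% and 1.47% of all genes called there. The 3 genes called were Csrp1 (3.06 and 3.46 log2), Ndrg1 (1.55 and 1.54) and Gclc (1.38 and 1.19), the last encoding the catalytic subunit for glutathione synthesis. Selenow, at 0.093 and 0.33, was not called. The median of the 4 genes was 1.46 and 1.36, and with median-ratio scaling 0.76 and 0.69. None of them had the high level of the metallothioneins in control after 7 days, since all 4 were lower there than with no recovery, by 0.20 to 0.46 log2.

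Of 8 glucocorticoid-responsive genes, 4 were called higher in OGT-KO with no recovery and 3 after 7 days, where 24.4% and 22.9% of all genes were. Their median log2 fold change was 1.07 and 0.36, against 0.51 and 0.48 over all genes, and 0.37 and -0.31 with median-ratio scaling. Of the same genes 0 were called higher over recovery in either label. Called lower were 3 in control and 4 in OGT-KO, where 0.96% and 0.435% of all genes were. In control these were Tsc22d3 (-1.49), Tat (-1.28) and Per1 (-1.19), where 0.96% of all genes were called lower. Their direction was opposite to that of Mt1 and Mt2 in control. In OGT-KO all 8 genes were below 0 over recovery, with a median of -1.01 against -0.027 over all genes. Mt1 and Mt2, at -0.31 and -0.40, were also below 0 there. Dusp1 (0.47 in control and -0.998 in OGT-KO) and Fkbp5 (0.57 and -0.34) had the signs of Mt1 and Mt2 over recovery. Between the labels Dusp1 shared these signs too at the deposited scaling, going from 0.98 at the earlier time to -0.49 at the later. Dusp1 thus had the signs of Mt1 and Mt2 in all 4 comparisons. Fkbp5 did not, since it stayed above 0 between the labels (1.16, then 0.25). Dusp1, at -1.47, was the 1 gene of the 8 called lower in the difference between the labels in that change, and Fkbp5 was at -0.91. Over all genes 0.647% were called lower in that difference. Of 8 NRF2 targets, 6 were called higher in OGT-KO with no recovery and 5 after 7 days (24.4% and 22.9% of all genes). They were led by the cystine transporter gene Slc7a11 (5.73 and 5.16) and Srxn1 (4.36 and 3.57). Gclc was called at both times and is also among the MTF1 targets counted above. Over recovery 0 of the 8 were called in control (1.2% of all genes). In OGT-KO 1, Srxn1, was called lower over recovery at -1.01, where 0.435% of all genes were. Of 8 copper-handling genes past the filter, 0 were called between the labels with no recovery and 1, the copper chaperone Atox1, after 7 days at 1.06 log2. Over all genes 30.1% and 27.1% were called in either direction at these times.

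Of 16 acute-phase and IL6-STAT3 genes past the filter, 15 were above 0 over recovery in control, with a median of 0.58 against -0.051 over all genes, and 3 were called higher, namely Lcn2 (1.78), Saa2 (1.43) and Steap4 (1.33), where 0.245% of all genes were called higher. Control after 7 days was not the highest library for all of them, since Lcn2 had 52.8 CPM there against 487 and 406 CPM in OGT-KO. Steap4, Apcs and Socs3 had the signs of Mt1 and Mt2 in all 4 comparisons at the deposited scaling. The other genes of the list did not. With the median-ratio size factors of the libraries without recovery (0.79 for control, 1.31 for OGT-KO), Steap4 and Socs3 fell below 0 between the labels. Apcs stayed above 0 there. That scaling moved the list's median between the labels from -0.60 to -1.32 at the earlier time and from -0.83 to -1.52 later. In the difference between the labels in the change over recovery, Steap4 was at -1.52, Apcs at -1.55 and Socs3 at -0.94. Over recovery in OGT-KO 7 of the 16 genes were above 0, with a median of -0.054 and 0 called, where 1.47% of all genes were. With no recovery, where Mt1 and Mt2 were higher in OGT-KO, 3 of the 16 genes were called lower there and 1, Lcn2, higher at 4.96. Over all genes 5.69% were called lower and 24.4% higher. After 7 days, with Mt1 and Mt2 lower in OGT-KO, 6 of 16 were called lower (4.27% of all genes) and 1 higher (22.9%). Then 14 were below 0, with a median of -0.83 against 0.48 over all genes. In the difference between the labels in the change over recovery, 3 were called lower (0.647%) and 0 higher (2.09%). There 14 were below 0, with a median of -0.64 against 0.034 over all genes. Over recovery in control, the summed macrophage and Kupffer cell markers went from 184 to 70.0 CPM, while Mt1, Mt2 and Slc39a14 went up. Over recovery in OGT-KO the markers went from 672 to 476 CPM, and Mt1, Mt2 and Slc39a14 also went down. The part of these cells in the levels of the members was not tested.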

How the data were processed

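Bulk mRNA-seq of mouse liver gave 1 library for each of 4 conditions. The authors deposited CPM, in which each library sums to 1000000. STAR, DESeq2 and GRCm39 are named in the submitters' processing notes without versions. Every value was a whole multiple of 1 read within 0.05 reads (100% in each library), so whole reads were recovered. These totals count only reads on the 13903 listed genes, and the filter behind that list is not given in the sources used here. A floor of 3 reads is 0.131 to 0.150 CPM.

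Genes were compared as differences of log2(CPM + 1) with a mean of at least 10 CPM and called at 2-fold. With 1 library per condition there is no test between conditions. Ratios carry exact conditional binomial 95% intervals, levels exact Clopper-Pearson intervals, for counting error only. An exact binomial test of the reads, two-sided with Benjamini-Hochberg adjustment, compares libraries and not conditions, and at an adjusted p under 0.05 it called 8011 and 7899 genes between the labels, and 3524 (control) and 5048 (OGT-KO) between the times. The members, lists and alternatives were chosen with earlier results of these data known. The genes named were the members, the other zinc genes called in any comparison, the largest changes of each list and the 5 profiles nearest to Mt1 and to Mt2. Slc39a6, Slc39a10, Slc39a5, Mt3, Slc30a5 and Cyp4a14 were added after their values were seen. Promoter windows are from RefSeq (GRCm38.p6), matched by symbol for 6 of 7 members, and transcript lengths from GENCODE M21 (GRCm38), matched by gene identifier for all 7. The table holds no coordinates. Reads shared between near-identical genes cannot be placed, since the counting is not stated. Alternatives were other pseudocounts, filters, scalings and thresholds. Steps were tested on simulated reads. Python 3.11 was used with numpy, pandas, scipy and matplotlib.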

Additional observations from a re-analysis of the deposited data

Results flagged for a closer look

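Members whose changes ran in opposite directions, with the counting intervals of both ratios off 1, are listed here. Each difference rests on 1 library per condition and was not tested. Between the labels, Mt1 was at 3.36 log2 with no recovery and -1.07 after 7 days, Mt2 at 3.91 and -1.61, and Slc39a14 at 0.14 and -1.03. Over recovery, in control and then in OGT-KO, Mt1 was at 4.12 and -0.31, Mt2 at 5.12 and -0.40, Slc39a14 at 0.82 and -0.36, and Slc30a1 at 0.26 and -0.18. With upper-quartile or median-ratio scaling, or with totals that leave out the 100 highest genes, Slc39a14 was lower in OGT-KO at both times (-0.34, -0.58 and -0.081 with no recovery), so that its opposite directions between the labels depend on the scaling, whereas those of Mt1 and Mt2 did not change sign under any of them.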

How the results depend on the processing

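No paired analysis was possible because each condition is 1 library. Of 35 log2 changes of members, 0 of those called changed sign under any pseudocount or scaling, and 6 small ones did with median-ratio scaling. Of 88 recomputed counts, 13 differed by more than 1.5 times. For the members only the count after 7 days between the labels did, at 1 with a 4-fold threshold (Mt1 and Slc39a14 were just past 2-fold), against 4. For the other zinc genes with no recovery (1 called) the count was 3 with no filter and 0 with a mean of at least 50 CPM, median-ratio scaling or 4-fold. After 7 days (2 called) it was 4 with no filter, 1 with a pseudocount of 10, upper-quartile scaling, totals without the 100 highest genes or median-ratio scaling (there Slc30a5, lower at -1.01), and 0 with a mean of at least 50 CPM or 4-fold. For the difference in the change over recovery (0 called) it was 1 with no filter (Slc39a5, at 10 to 36 reads). The counts with fewer genes tested follow from the filter, and for the rest the cause was not tested. The exact binomial test removed no called member. Depth limits Mt2 in control with no recovery (78 reads) and Mt3, and the pooled single libraries limit every comparison.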
